A study of Mus musculus with 8 samples.

Results

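The contacts described here join the distal ends of mouse chromosomes, the last 10 Mb of each of the 19 autosomes, to the distal ends of other autosomes. Members were assigned by position alone, but the set was chosen with earlier results of these data known. A bin pair belongs to the set when its 2 bins lie on different autosomes and each is among the last 20 bins of 500 kb of its chromosome in the mm9 assembly. Of 380 such end bins 373 passed the limit on coverage, out of 4780 autosomal bins kept, and they form 65898 bin pairs, which is 0.611% of the 10785578 bin pairs between autosomes. These pairs fall into 171 pairs of chromosome ends. They were compared with all bin pairs between autosomes and with 130745 end–start pairs, in which 1 bin lies in the last 10 Mb and the other between 3 and 13 Mb of another autosome. Start–start pairs, with each bin between 3 and 13 Mb, numbered 64825.

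The data are Hi-C maps of mouse embryonic stem cells (mESCs), made to examine what LINE1 (L1) RNA contributes to higher-order chromatin structure. SCR AMO cells received a scrambled antisense morpholino and serve as the control. L1 AMO cells received a morpholino against the RNA of L1, the most abundant family of long retrotransposons in the mouse genome. In each group there were 2 samples, nucleofected with 5 nmol of AMO per 100 µl, sorted at 12 h for cells that had taken it up and harvested at 36 h. A morpholino blocks its target RNA sterically, so the treatment is not a genetic deletion. The labels do not give how far L1 RNA was inhibited in these samples. Every sample carried a morpholino and had been through nucleofection and sorting. The labels give no genotype or passage for the cells. The methods speak of independent transfections without saying which sample belongs to which, so p-values measure the spread between these samples only.

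The morpholinos are the only designed sequences in the comparison and define its groups. Each has 25 bases, and they are printed 5′ to 3′ in lower case, with no part set in capitals.
L1 AMO: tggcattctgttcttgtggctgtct
SCR AMO: cctcttacctcagttacaatttata

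Mouse autosomes are telocentric, with the centromere at the very start of the chromosome and a telomere next to it, so the last 10 Mb is the end that lies opposite the centromere and finishes at the distal telomere. Hi-C joins DNA fragments that were near each other in the fixed nucleus, and a count between chromosomes records proximity across territories. Chromatin of the A compartment, which is gene-rich and active, contacts other A chromatin preferentially, and B compartment chromatin, which is repressed and often lines the lamina and nucleolus, contacts other B chromatin. Chromosome ends can also meet through their arm position, when centromeres gather on 1 side of the nucleus and distal ends on the other, or through clustering at nuclear bodies.

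The L1 AMO libraries stood apart from the SCR AMO libraries in ways that do not depend on the ends. Median coverage of chromosome 1 relative to all autosomal bins was 1.32 and 1.37 in the L1 AMO samples against 0.975 and 0.975 in the SCR AMO samples, and that of chromosome 14 was 1.13 and 1.20 against 0.841 and 0.855. A contact block joined chromosome 1 at 132–132.5 Mb with chromosome 14 at 97.5–98 Mb, at 129 and 119 times the mean between autosomes in the L1 AMO samples and at 0.512 and 0 times in the SCR AMO samples. The block lies outside the end windows, which begin at 187.5 Mb and 115.5 Mb on these chromosomes. The stretches from the block to the chromosome end, which hold these windows, were also covered more deeply in L1 AMO. Their median coverage was 1.29 and 1.33 against 1.02 and 1.02 in SCR AMO on chromosome 1. On chromosome 14 it was 1.22 and 1.28 against 0.845 and 0.848. Whether the cells carried a rearrangement was not tested, and a difference in karyotype between the groups cannot be told apart from the AMO. The main enrichments and counts are therefore also given without chromosomes 1 and 14. Depth, as the sum of each sample's matrices, ran from 22252054 to 112381720 contacts. The sums of the SCR AMO matrices differ from the read pairs tabulated for the study, and which pairs entered the matrices is not given in the sources used here. Contacts with other autosomes made up 25.6% and 26.5% of all contacts of autosomal bins in SCR AMO, and 18.5% and 16.8% in L1 AMO. For this reason every enrichment below is relative to the mean between autosomes of the same sample.

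Ends of different chromosomes contacted each other more often than average bin pairs between autosomes in all 4 samples. Enrichment, the mean balanced contact frequency of the end–end pairs divided by that of all pairs between autosomes, was 1.83 and 1.73 in SCR AMO replicates 1 and 2, and 1.59 and 1.55 in L1 AMO replicates 1 and 2. Each L1 AMO value lay below each SCR AMO value. The group means were 1.78 ± 0.0727 and 1.57 ± 0.0324 (SD, n = 2 each), a difference of -0.206 or -11.6%. In the two-sided exact permutation test over the 4 samples p was 0.333, the smallest value that 2 samples against 2 can give, so no single enrichment can pass a threshold of 0.05 in this design. Statements below that groups do not overlap rest on the same 4 samples and the same p.

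Contacts of ends with starts were near the average and differed far less. End–start enrichment was 1.01 and 1.00 in SCR AMO and 0.991 and 0.984 in L1 AMO, a difference of -0.0186 without overlap. The ratio of end–end to end–start enrichment, a measure of how strongly an end prefers other ends to the opposite arm position, was 1.81 and 1.72 in SCR AMO and 1.61 and 1.57 in L1 AMO. Start–start pairs differed in the other direction. Their enrichment was 1.77 and 1.70 in SCR AMO and 1.81 and 1.80 in L1 AMO, a difference of 0.0665. Relative to the mean between autosomes, a lower contact frequency in L1 AMO was thus measured for end–end and not for start–start pairs. The start–start difference was not stable. Without the top 0.1% of bin pairs it was 0.00384 and the groups overlapped.

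The size of the difference depended on how the maps were balanced. Balancing the whole map gives every bin the same total of contacts within and between chromosomes, so a bin with a larger share of contacts within its chromosome has fewer left for other chromosomes. When the contacts between autosomes were balanced alone, end–end enrichment was 1.32 and 1.31 in SCR AMO and 1.26 and 1.27 in L1 AMO, a difference of -0.0491 that kept the groups apart. End–start enrichment then stood at 0.774 and 0.795 against 0.800 and 0.808, a difference of 0.0200 in the opposite direction to that of the whole map. Start–start values overlapped, at 1.43 and 1.39 against 1.42 and 1.40. The ratio of end–end to end–start was again lower in each L1 AMO sample, at 1.71 and 1.64 in SCR AMO and 1.58 and 1.57 in L1 AMO. Without chromosomes 1 and 14 end–end enrichment was 1.85 and 1.75 in SCR AMO and 1.66 and 1.61 in L1 AMO, a difference of -0.164, and the ratio of end–end to end–start enrichment 1.82 and 1.73 against 1.65 and 1.62.

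**Figure D1:**
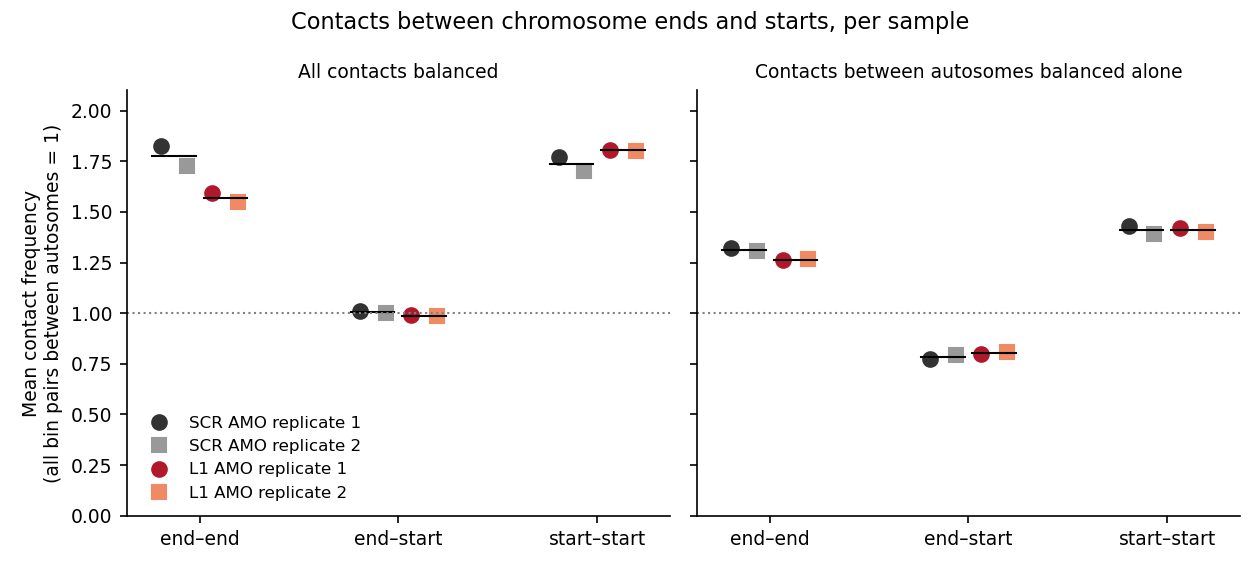
Mean contact frequency relative to all bin pairs between autosomes (vertical axis, all pairs = 1, dotted line) for end–end, end–start and start–start pairs, after balancing the whole map (left) or the contacts between autosomes alone (right). Points are samples and short lines are group means (n = 2). End–end values are lower in each L1 AMO sample in both panels, with a smaller gap on the right (means 1.31 and 1.27) than on the left (1.78 and 1.57).

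Raw counts gave the same order. End–end contacts were 1.15% of contacts between autosomes in SCR AMO replicate 1 (95% Wilson interval 1.14–1.15%), 1.07% in replicate 2 (1.06–1.08%), 0.964% in L1 AMO replicate 1 (0.958–0.971%) and 0.911% in replicate 2 (0.904–0.919%). The intervals cover counting error only and do not touch between samples, so the spread between samples and not depth limits this value. The end bins sent 29.5% and 30.0% of all their contacts to other autosomes in SCR AMO, and 20.6% and 18.6% in L1 AMO. Relative to the share of all autosomal bins this was 1.15 and 1.13 in SCR AMO and 1.11 and 1.10 in L1 AMO. The lower share of contacts between chromosomes in the L1 AMO libraries therefore applied to end bins and other bins alike, with a further difference for end bins.

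Ends lay in A compartment chromatin more often than the rest of the genome, and A and B end bins were both enriched. Compartments were taken from eigenvector 1 of the contacts within each autosome, with positive values as A. Of the end bins 63.5% were A, against 38.9% of start bins and 44.9% of all autosomal bins. Bins within 2 Mb of the end were not richer in A than the autosomes, with 44.4% A. At 2 to 4 Mb the share was 72.4% and at 8 to 10 Mb 61.8%. A–A pairs between ends had an enrichment of 2.55 and 2.36 in SCR AMO and 2.25 and 2.10 in L1 AMO, and A–A pairs elsewhere 1.58 and 1.50 against 1.48 and 1.39. The ratio of the former to the latter was 1.62 and 1.57 in SCR AMO and 1.52 and 1.51 in L1 AMO. A pairs at ends thus exceeded other A pairs in every sample.

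Relative to other pairs of the same kind, end pairs that include B chromatin showed wider gaps between the groups than A–A end pairs. In enrichment itself the gap was widest for A–A pairs, with a difference of -0.279 against -0.155 for A–B and -0.160 for B–B pairs. B–B pairs between ends had an enrichment of 1.83 and 1.72 in SCR AMO and 1.56 and 1.67 in L1 AMO, while B–B pairs elsewhere were higher in L1 AMO, with 0.899 and 0.915 against 0.976 and 1.01. Their ratio was 2.04 and 1.88 in SCR AMO and 1.60 and 1.64 in L1 AMO. A–B pairs between ends had values of 1.21 and 1.19 in SCR AMO and 1.05 and 1.05 in L1 AMO, with other A–B pairs overlapping between the groups, and the ratio was 1.48 and 1.42 against 1.28 and 1.27. Without chromosomes 1 and 14 the ratio for B–B pairs was 1.97 and 1.83 against 1.58 and 1.64, that for A–B pairs 1.46 and 1.40 against 1.28 and 1.27, and that for A–A pairs 1.64 and 1.59 against 1.59 and 1.58.

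With contacts between autosomes balanced alone, all 3 ratios differed less between the groups. The A–A ratio was then 1.34 and 1.33 in SCR AMO and 1.33 and 1.34 in L1 AMO, so the groups overlapped. The B–B ratio was 1.51 and 1.46 in SCR AMO and 1.30 and 1.34 in L1 AMO, and the A–B ratio 1.16 and 1.16 against 1.09 and 1.08. In this setting the lower contact frequency of ends in L1 AMO was found in pairs with at least 1 B bin and was not detectable in A–A pairs. The difference between the kinds of pair was not itself tested.

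Compartment-matched end–end enrichment was lower than the unmatched value and left the groups apart. Each end–end pair was divided by the mean of all other pairs between autosomes from the same 2 classes of eigenvector 1, with 5 classes of equal size, in the same sample. The compartment-matched enrichment was 1.59 and 1.53 in SCR AMO and 1.43 and 1.42 in L1 AMO, a difference of -0.131. Compartment-matched end–start values were 0.953 and 0.955 in each group, and the groups overlapped (exact permutation p = 1). Ends thus exceeded pairs of like compartment elsewhere in all samples, and end–start pairs were slightly below them. Without chromosomes 1 and 14 the matched end–end values were 1.58 and 1.53 against 1.46 and 1.46.

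Enrichment was far higher next to the telomere than further in. With each bin within 2 Mb of its end, the 4 samples had values of 5.13, 4.57, 4.33 and 4.32, with the SCR AMO samples first. Between 2 and 4 Mb the group means were 1.85 in SCR AMO and 1.66 in L1 AMO, and between 8 and 10 Mb 1.46 and 1.25. The L1 AMO samples lay below the SCR AMO samples in each of the 5 bands, with log2 ratios from -0.23 to -0.15. In the band next to the telomere the difference was -0.526 in all, -0.245 without SCR AMO replicate 1, -0.807 without SCR AMO replicate 2, -0.389 without chromosomes 1 and 14 and -0.189 when contacts between autosomes were balanced alone. In that balancing the log2 ratio was -0.10 in this band and -0.02, -0.04, -0.02 and -0.09 in the next 4 bands inwards, again without overlap.

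Pairs of 2 last bins did not share this pattern. The last bin is shorter than the others, it passed the coverage limit on 15 autosomes, and pairs of 2 last bins had an enrichment of 16.9 ± 1.61 in SCR AMO and 18.4 ± 1.17 in L1 AMO (SD, n = 2), and the groups overlapped. Pairs of a last bin with the bin next to it inwards on another chromosome had group means of 9.12 in SCR AMO and 8.53 in L1 AMO. Pairs of 2 bins 0.5 to 1 Mb from the end had values of 6.78 and 6.27 against 5.85 and 5.50. The highest bin pair, chosen after its values were seen, joined the last bins of chromosome 8 (from 131.5 Mb) and chromosome 17 (from 95 Mb). It stood at 138 and 116 times the mean between autosomes in SCR AMO and at 187 and 188 times in L1 AMO, opposite in direction to the ends as a whole. When the top 0.1% of bin pairs were left out, which took away 1.58% of the end–end pairs, the values within 2 Mb were 3.09 and 2.56 against 2.31 and 2.18. Without the last bin of each chromosome the group means within 2 Mb were 3.51 in SCR AMO and 2.90 in L1 AMO.

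Away from the end, contacts with the ends of other chromosomes were fewer but did not decline evenly. Bins within 2 Mb of their end had a mean frequency of 2.47 and 2.28 with the last 10 Mb of other autosomes in SCR AMO, and 2.12 and 2.07 in L1 AMO. The next band, 2 to 4 Mb from the end, had values of 1.83 and 1.74 against 1.59 and 1.54. The SCR AMO mean was 1.41 at 12 to 14 Mb, 1.58 at 14 to 16 Mb and lowest at 40 to 42 Mb, with 1.10. Bins between 58 and 60 Mb from the end had values of 1.23 and 1.21 against 1.17 and 1.17. On the log2 scale the ratio (L1 AMO over SCR AMO) was -0.18 in the band next to the end and -0.06 in the band at 58 to 60 Mb. The groups stayed apart in every band, also beyond the border of the 10-Mb window. This profile is given for the balanced whole map only. With contacts between autosomes balanced alone, end–start enrichment was higher in L1 AMO, by 0.0200.

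**Figure D2:**
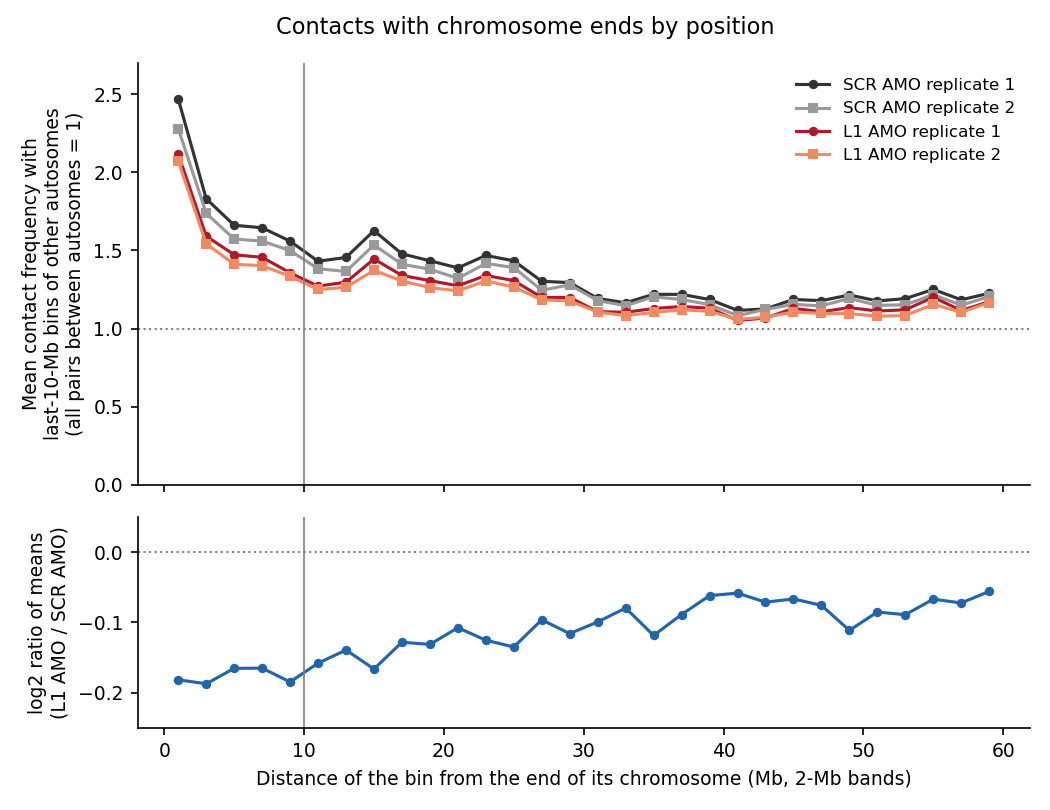
Mean contact frequency of bins with the last 10 Mb of all other autosomes (top, all pairs between autosomes = 1) by their own distance from the chromosome end in 2-Mb bands, for the 4 samples, and the log2 ratio of the group means (bottom). The vertical line marks the 10-Mb window, and the whole map was balanced. Values are highest next to the end (2.47 in SCR AMO replicate 1) and lowest at 40 to 42 Mb in the SCR AMO mean (1.10), and the ratio goes from -0.18 to -0.06 at 60 Mb.

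The 19 ends differed widely among themselves, more than the groups did. The end of chromosome 11 (from 112 Mb) had the highest mean enrichment with the other 18 ends in SCR AMO, with values of 2.47 and 2.32 there and 2.13 and 1.99 in L1 AMO. The end of chromosome 8 (from 122 Mb) followed with 2.36 and 2.22 against 2.09 and 2.02, and that of chromosome 2 (from 172 Mb) with 2.35 and 2.16 against 2.00 and 1.82. These ends are mostly A chromatin, with 85%, 80% and 100% of their bins positive for eigenvector 1.

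At the other extreme stood chromosomes 3, 13 and 18. The end of chromosome 3 (from 150 Mb) had values of 1.24 and 1.23 in SCR AMO and 0.982 and 1.03 in L1 AMO, so that it was at the average of all pairs between autosomes after L1 AMO. The end of chromosome 13 (from 110.5 Mb) had 1.26 and 1.22 against 1.06 and 1.11, and that of chromosome 18 (from 81 Mb) 1.33 and 1.31 against 1.17 and 1.21. Only 25%, 25% and 35% of the bins of these 3 ends were A. In the order of the SCR AMO means 12 of 18 neighbouring ends overlapped in their samples and 6 did not. Across the 19 ends the mean of eigenvector 1 and the SCR AMO enrichment had a Pearson's r of 0.888 and a Spearman's rho of 0.898, given as a description because the 2 values come from the same libraries and the ends share partners.

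**Figure D3:**
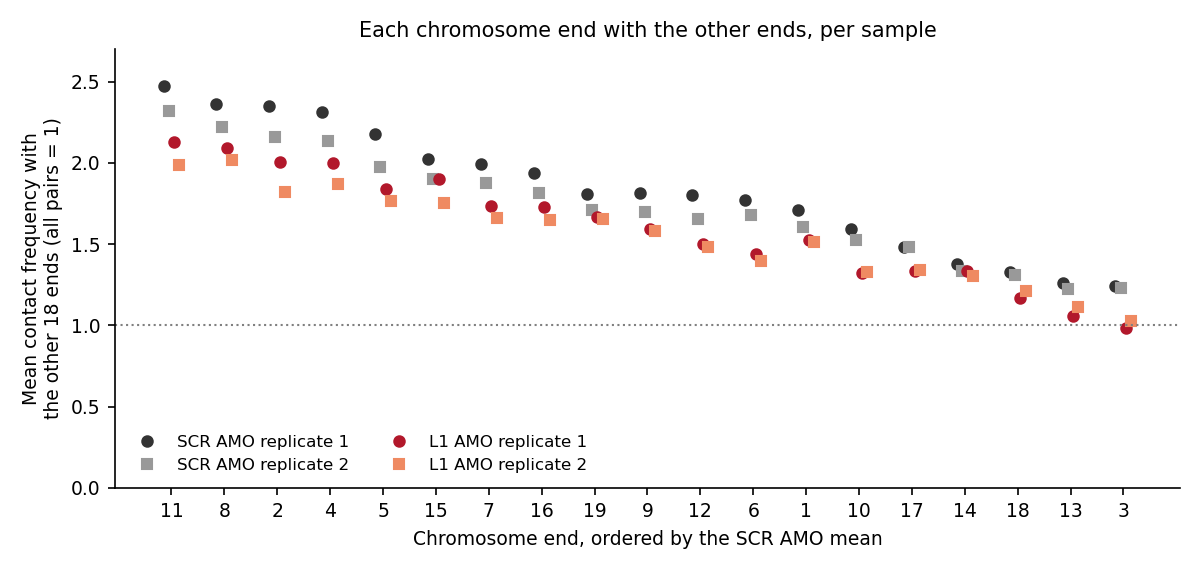
Mean contact frequency of each chromosome end with the other 18 ends (vertical axis, all pairs between autosomes = 1) in the 4 samples, ordered by the SCR AMO mean. Ends range from 2.40 (chromosome 11) to 1.24 (chromosome 3) in the SCR AMO mean, and 17 of 19 have both L1 AMO samples below both SCR AMO samples. This count has no share over other single windows beside it.

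The difference between the groups was spread over nearly all ends. In 17 of 19 ends each L1 AMO sample lay below each SCR AMO sample, in 2 (chromosomes 14 and 15) the groups overlapped, and in 0 they lay above. Without chromosomes 1 and 14 this held for 15 of the 17 ends left. Each value is a mean over 18 partner ends, so the ends share partners and are not separate observations. No share over other single windows is given, so the counts of single ends here and below lack that background. For contacts of the same 19 ends with the starts of other autosomes, 11 lay below, 5 above and 3 overlapped. The most negative log2 ratios were those of chromosome 3 (-0.30), chromosome 6 (-0.28) and chromosome 2 (-0.24). The end of chromosome 6 (from 140 Mb) had values of 1.77 and 1.68 in SCR AMO and 1.44 and 1.40 in L1 AMO.

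The smallest differences were those of chromosomes 14, 19 and 15. Chromosome 14 (from 115.5 Mb) had values of 1.38 and 1.33 in SCR AMO and 1.34 and 1.30 in L1 AMO, a log2 ratio of -0.04. Chromosome 19 (from 51.5 Mb) had 1.81 and 1.71 against 1.67 and 1.65, and chromosome 15 (from 93.5 Mb) 2.02 and 1.90 against 1.90 and 1.75. Chromosome 14 is covered more deeply in the L1 AMO samples, and by its contacts with other ends relative to starts it differed more than all ends but that of chromosome 3. That gap came mostly with higher contacts with starts, at 0.81 and 0.80 in SCR AMO and 1.00 and 1.02 in L1 AMO. Its contacts with other ends overlapped between the groups. Its end had 1.71 and 1.66 times as much contact with other ends as with the starts of other autosomes in SCR AMO, and 1.33 and 1.27 times in L1 AMO. By this ratio 15 of 19 ends were lower in L1 AMO without overlap, 3 overlapped and 1, chromosome 19, was higher, at 1.36 and 1.36 against 1.37 and 1.45.

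With contacts between autosomes balanced alone, 13 ends lay below, 3 above and 3 overlapped. The 3 ends above were those of chromosome 4 (1.36 and 1.34 against 1.39 and 1.40), chromosome 15 (1.23 and 1.22 against 1.28 and 1.27) and chromosome 19 (1.17 and 1.17 against 1.20 and 1.23). The most negative log2 ratio in this setting was that of chromosome 14, at -0.26. The direction for chromosomes 4, 15 and 19 thus depends on the balancing.

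Pairs of ends covered a wide range. In SCR AMO the means of the 171 pairs ran from 0.924 to 4.23 with a median of 1.62, and 167 were above 1. In L1 AMO they ran from 0.763 to 3.87 with a median of 1.43, and 153 were above 1. In 116 pairs (67.8%) the L1 AMO values were all lower than the SCR AMO values, in 2 all higher, and in 53 the groups overlapped. Of all 29272 pairs of windows of up to 10 Mb on different autosomes, 26.8% were lower and 27.1% higher in the same sense. Of the 342 end–start pairs 111 lay below and 66 above, and of the 171 start–start pairs 37 and 59. Without chromosomes 1 and 14, 102 of 136 pairs of ends lay below. When contacts between autosomes were balanced alone, 73 of the 171 lay below and 34 above. The shares of all window pairs given here are those of the whole map with all autosomes. No such share is given for these last settings, so their counts lack that background.

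The strongest pairs joined ends with much A chromatin. Ends 4–11 had values of 4.51 and 3.95 in SCR AMO and 3.96 and 3.78 in L1 AMO, which overlapped by a narrow margin. Ends 2–4 had 4.18 and 3.71 against 3.65 and 3.10, and ends 2–11 had 4.11 and 3.76 against 3.39 and 3.13, without overlap. Ends 4–8 and 8–11 followed, with SCR AMO means of 3.67 and 3.62. The weakest pairs involved chromosomes 3, 13 and 18. Ends 3–4 had 0.920 and 0.928 in SCR AMO and 0.663 and 0.863 in L1 AMO, and ends 3–19, 3–15, 13–15 and 4–18 had SCR AMO means from 0.977 to 1.01.

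**Figure D4:**
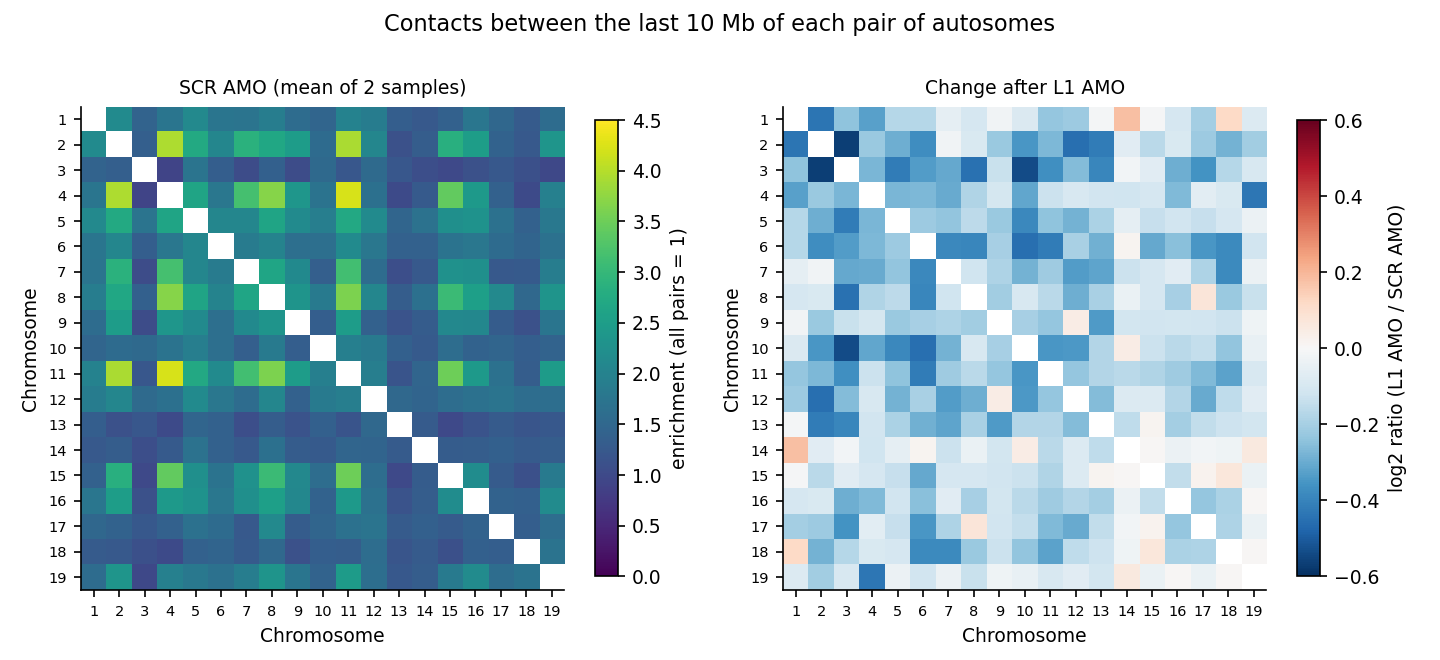
Enrichment of contacts between the last 10 Mb of each pair of autosomes in SCR AMO (left, mean of 2 samples, all pairs between autosomes = 1) and the log2 ratio of the L1 AMO to the SCR AMO mean (right), with chromosomes in order on each axis. The brightest cell on the left is the pair 4–11 (4.23), and on the right most cells are below 0, with a median of -0.17 and a range from -0.56 to 0.18.

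The quasi-likelihood test of edgeR was applied to raw counts of 29265 window pairs, with Benjamini-Hochberg adjustment. After TMM normalization, which centres the typical pair between autosomes on no change, 83 of 171 pairs of ends fell (48.5%) and 8 rose (4.68%) at a false discovery rate of 0.05. Among all window pairs 14.9% fell and 23% rose. The median log2 fold change was -0.27 over the pairs of ends and -0.01 over all pairs. Of the 342 end–start pairs 64 fell and 60 rose, with a median of -0.09. These counts were 10 and 31 without SCR AMO replicate 1, 21 and 46 without L1 AMO replicate 2, and 7 and 30 with DESeq2. Without SCR AMO replicate 1, the deepest library, 21 pairs of ends fell and 3 rose, against 2.91% and 13.2% of all pairs. Without L1 AMO replicate 2, 55 fell and 8 rose, against 6.25% and 19.6%.

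The 8 pairs that rose all included chromosome 1 or 14, the chromosomes covered more deeply in L1 AMO, and 0 of the 83 that fell did. Leaving both chromosomes out of the fit, 33 of 136 pairs of ends fell (24.3%) and 0 rose, against 4.74% and 6.54% of all window pairs. An unadjusted edgeR p under 0.05 was found for 70 of the 136, and for 5851 of all 21880 window pairs. Entering the balancing weights as an offset, which takes up the coverage of each bin, 51 of 171 fell (29.8%) and 0 rose, against 5.59% and 11.7%. In that fit 86 pairs of ends had an unadjusted edgeR p under 0.05, beside 8960 of all 29265 window pairs. With the offset and without chromosomes 1 and 14, 25 of 136 fell and 0 rose, against 1.95% and 4.07%. With all contacts of a sample as library size, which keeps the lower share between chromosomes in L1 AMO, 166 of 171 fell and 0 rose, against 80.2% and 1.65%. DESeq2 on the raw counts called 40 pairs of ends lower and 1 higher, against 2.91% and 12.6%. The share of pairs of ends that fell thus exceeded that of all pairs in each of these fits.

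**Figure D5:**
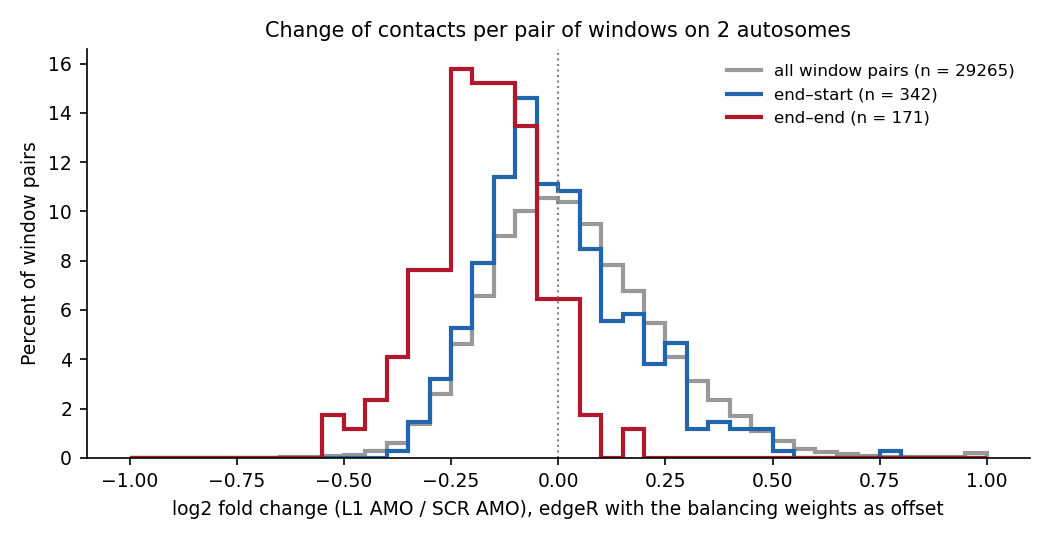
Distribution of log2 fold changes (L1 AMO over SCR AMO) from edgeR with the balancing weights as offset, as a percent of window pairs (vertical axis), for all 29265 window pairs, 342 end–start pairs and 171 end–end pairs. Values beyond ±1 are counted in the outermost bars. The end–end curve lies to the left, with a median of -0.17, while the medians are -0.03 for end–start pairs and 0.02 for all pairs.

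Among the pairs of ends that fell, and whose groups did not overlap in balanced enrichment, the 3 with the largest changes joined the ends of chromosomes 2, 3, 10 and 12. Ends 2–12 fell by 0.64 on the log2 scale (SE 0.100, edgeR adjusted p = 4.39e-09), from 1399 and 286 raw counts in SCR AMO to 334 and 225 in L1 AMO at unequal depth. In balanced enrichment this pair had 2.11 and 2.02 against 1.53 and 1.49. Ends 2–3 fell by 0.64 (SE 0.102, edgeR adjusted p = 9.05e-09) and had a balanced enrichment of 1.36 and 1.36 against 0.991 and 0.850. Ends 3–10 fell by 0.60 (SE 0.0946, edgeR adjusted p = 5.63e-09) and had 1.46 and 1.61 against 0.971 and 1.15. Each of these 3 pairs went from above the average between autosomes to a lower level, and 2–3 ended below it in both samples.

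Ends 6–11, 2–10, 6–10, 4–19, 10–11, 4–6 and 2–11 followed, with log2 fold changes from -0.59 to -0.51. With the offset from the balancing weights these 10 pairs had log2 fold changes from -0.54 (2–3) to -0.32 (2–11), each with an edgeR adjusted p below the threshold of 0.05. Ends 2–11 lost the call when chromosomes 1 and 14 were left out of the fit of raw counts (edgeR adjusted p = 0.0856). It also lost it without SCR AMO replicate 1, SCR AMO replicate 2 or L1 AMO replicate 2, with log2 fold changes of -0.43, -0.56 and -0.38, and ends 2–10 and 4–19 lost theirs without SCR AMO replicate 1, at -0.31 and -0.37. With the offset the end of chromosome 6 was part of 14 pairs that fell, out of 18, that of chromosome 10 of 10, those of chromosomes 2, 3 and 12 of 9 each, and that of chromosome 14 of 0.

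The pair that rose without overlap in balanced enrichment was 1–14, the chromosomes that carry the contact block. Its log2 fold change was 0.70 (SE 0.102, edgeR adjusted p = 2.77e-10), and its enrichment was 1.32 and 1.20 in SCR AMO and 1.43 and 1.42 in L1 AMO. Over all bin pairs of these 2 chromosomes the mean frequency was 0.827 and 0.860 in SCR AMO and 1.46 and 1.50 in L1 AMO, a wider gap than that of their ends. With the offset the log2 fold change of the ends was 0.17 and did not pass the test (edgeR adjusted p = 0.121).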

How the data were processed

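Hi-C contact matrices of 4 samples (2 SCR AMO, 2 L1 AMO) were used. The authors mapped sisHi-C read pairs with HiC-Pro (version 2.7.1b per the submitters' notes) to mm9 and deposited matrices of raw counts, in which each entry is the number of contacts of 2 bins of 500 kb, with 1 matrix per SCR AMO sample and 2 per L1 AMO sample. The 2 matrices were added. For HiC-Pro the study's methods name a version other than that of the submitters' notes. Whether duplicates had been removed and the mapping options are not given in the sources used here. The H3K9me3 ChIP-seq samples were not used here.

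Bins were taken to follow the mm9 autosomes in numerical order and then X, Y and M, which was checked at the 19 autosomal ends, where contacts across an end were at most 0.0114 of those inside it. A bin was dropped when its coverage in any sample was below 0.1 of the median of its chromosome, and the 5093 bins kept (autosomes and X) were balanced by iterative correction in 18 to 19 iterations. Enrichments are means over bin pairs divided by the mean between autosomes of the same sample, compared by two-sided exact permutation tests. Eigenvector 1 was computed per autosome from the pooled observed/expected maps, and its sign was set by the map between autosomes, with chromosome 11, which is gene-dense, positive.

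Window pairs with at least 10 counts on average were tested with edgeR 4.0.16 in R 4.3.3, without a block for replicate numbers. The rest was computed in Python 3.11.15 (pandas 2.3.3, numpy 2.4.6, scipy 1.17.1). Only the whole-map end–end and end–start enrichments were tested on simulated data. These had no compartments and the same level of contacts within the chromosome for every bin, so the other calculations were not covered. A mean of 4.12, 0.777, 1.26 and 0.856 counts per end–end bin pair (SCR AMO replicates 1 and 2, L1 AMO replicates 1 and 2) limits single bin pairs, not the means.

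Regions named are the 3 ends highest and lowest in SCR AMO, the 3 with the most and least negative log2 ratio, the 5 highest and 5 lowest pairs of ends, and up to 10 called pairs in each direction whose groups do not overlap. Members and lists were chosen with earlier results of these data known. Alternatives covered balancing, coverage limit, window, last bin, top bin pairs, single matrices, single samples, compartment classes, count normalization, filter and DESeq2 1.42.0. Leaving out chromosomes 1 and 14, the same 2 chromosomes as the reference, and the offset were chosen after seeing the data.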

Additional observations from a re-analysis of the deposited data

How the results depend on the processing

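The direction of the end–end difference (L1 AMO minus SCR AMO) held under every alternative run, from -0.293 to -0.0491, as did that of the ratio to end–start pairs (-0.255 to -0.103) and of the compartment-matched value (-0.194 to -0.0499). The narrowest came from balancing contacts between autosomes alone. With samples left out in turn the end–end difference ran from -0.257 to -0.154 and the matched one from -0.162 to -0.100. The start–start difference ran from 0.000374 to 0.101. The end–start difference turned to 0.0200 under balancing between autosomes alone. The compartment-matched end–start difference, which is near 0, turned positive in the second L1 AMO matrix alone (0.00241), with the last 5 Mb (0.00596), without the top 0.1% of bin pairs (0.000154), with 10 classes of eigenvector 1 (0.00122), with the genome-wide eigenvector (0.0137), with balancing between autosomes alone (0.0227) and without chromosomes 1 and 14 (0.00800), and ran from -0.00129 to 0.00128 with samples left out. Causes were not tested.

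Pairs of ends called by edgeR, 83 fell and 8 rose, became 166 and 0 with all contacts as library size. They became 40 and 1 with DESeq2 and 33 and 0 without chromosomes 1 and 14. With the offset they became 51 and 0, and with the offset and without these chromosomes 25 and 0. At a false discovery rate of 0.01 they were 56 and 5, beside 7.85% and 19.5% of all window pairs. With samples left out in turn 21 to 69 fell and 3 to 8 rose. End–start pairs that fell and rose (64 and 60) became 18 and 30 with the offset and 16 and 8 without chromosomes 1 and 14. Replicate numbers are shared between the groups, and same-numbered samples deviated together with r = 0.177 over all window pairs and 0.287 over the pairs of ends. With the number as a block 111 pairs of ends fell and 12 rose, beside 19.1% and 24.7% of all window pairs, and the end–end differences within numbers were -0.234 and -0.177.

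No enrichment can pass 0.05 with 2 samples per group. Depth limits single bin pairs, and 500-kb bins do not resolve the telomere itself.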
